A study of Mus musculus with 6 samples.

Results

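Hematopoietic stem cells (HSCs) reach and stay in the bone marrow through receptors that read chemokines, lipids, and guidance cues and through adhesion molecules that hold them to vessels, matrix, and neighboring cells. The transcripts of 8 such receptors, *Cxcr4*, *Robo4*, *S1pr1*, *Cd44*, *Selplg*, *Jam3*, *Pecam1*, and *Alcam*, were selected by gene symbol. All 8 were found among the 26264 genes of the table, and all 8 were among the 17404 genes that were tested, those whose normalized count averaged 10 or more.

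Bulk RNA sequencing was performed on bone marrow HSCs sorted from 3 WT (C57Bl/6) and 3 *Irf1-/-* (B6.129S2-Irf1 tm1Mak/J) mice. All mice were female, untreated, and 8 weeks old, and each gave 1 library. The knockout is present in every cell of the body, so effects within HSCs and effects of their surroundings cannot be told apart. Libraries are named by genotype and by the replicate numbers 2, 3, and 4 of the sample descriptions. WT libraries held 59658080, 45332573, and 43267486 reads on genes (replicates 2, 3, and 4), and *Irf1-/-* libraries held 43138521, 57281017, and 45129929. Values are normalized counts, that is, reads per gene divided by 1 size factor per library. The reads carry no molecular identifiers, so PCR copies of a molecule were counted as separate reads.

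*Irf1* itself was still counted in the knockout. Its normalized counts were 10122, 11120, and 12057.5 in WT HSCs and 9267, 9524, and 9287 in *Irf1-/-* HSCs. The knockout libraries were all below the WT libraries, but the difference did not pass the test, with a log2 fold change of −0.24 by limma (adjusted *P* = 0.170, SE 0.088) and of −0.18 without WT replicate 4. The summed reads of the gene are thus a weak check of the genotype labels on their own, and the position of these reads within the gene was not analysed here. *Cd74*, the invariant chain of MHC class II, whose genes IRF1 is known to activate through CIITA, lay between 5526 and 7584 normalized counts in the WT libraries and between 54.0 and 403 in the knockout libraries, so every library was on the side of its label.

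HSCs were gated as cells that carry Sca-1, c-Kit, and CD150 but neither CD48 nor lineage markers. The lineage antibodies would remove B cells (B220), T cells (CD4 and CD8), granulocytes and monocytes (Gr-1 and CD11b), and red cells (Ter119). Transcripts that define the sorted population were abundant. The 10 HSC markers summed to between 187422 and 223422 normalized counts per library, led by *Kit* at a mean of 82378.5. *Cd48*, against which the cells were sorted, was between 257 and 431. *Flt3*, the other progenitor marker examined, was more abundant, between 1730 and 4476, and was higher in every knockout library than in any WT library. WT replicate 4 stood apart from the other libraries by its granulocyte transcripts. The 10 granulocyte and monocyte markers summed to 8347 in that library and to between 1349 and 1983 in the others. In WT replicate 4, *Ngp* was at 2535, *Ltf* at 2032, *S100a9* at 1246, and *S100a8* at 1033 normalized counts, whereas each of the 4 was at or below 131 in every other library. Over all libraries *Cd68* had the highest mean of this list (713). The log2 fold changes of the receptors and of the pathway genes that passed the adjusted *P*, and the list medians, are therefore also given without this library.

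CXCR4 is the receptor of the chemokine CXCL12, which stromal cells of the marrow produce and which keeps HSCs in place, whereas S1PR1 senses sphingosine-1-phosphate (S1P), a lipid that is higher in blood than in tissue and draws cells out. ROBO4 is a member of the roundabout guidance receptors and takes part in HSC homing and retention. PSGL-1, encoded by *Selplg*, binds selectins on vessel walls, CD44 binds hyaluronan, and JAM-C (*Jam3*), PECAM-1, and ALCAM act at contacts between cells.

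Of these 8 transcripts, *S1pr1* rose in *Irf1-/-* HSCs, *Jam3* was higher by a smaller margin, and neither *Cxcr4* nor *Cd44* was separated between the genotypes. The test was limma on log2(normalized count + 1), a scale that understates differences of weakly expressed genes, and each log2 fold change is the *Irf1-/-* value minus the WT value. Calls required an adjusted *P* below 0.05 together with a log2 fold change beyond 0.58 in either direction. By this rule 1 of the 8 receptors was called higher, where 0.96% of all tested genes were (167 genes), and 0 were called lower, where 0.954% were (166 genes). At an unadjusted *P* under 0.05 in limma, 4 receptors were higher, against 8.38% of all genes (1459), and 0 lower, against 8.07% (1404). Among the receptors, edgeR and DESeq2 on recovered reads each called 1 higher and 0 lower. Over all genes, edgeR called 165 higher and 162 lower of 17404, and DESeq2 295 higher and 209 lower of 26264. Without the fold change threshold, 2 receptors passed in limma as higher (1.73% of all genes, 301) and 0 as lower (1.49%, 260). All 3 knockout libraries lay above all 3 WT libraries for 4 receptors, against 10.6% of all genes (1853), and below them for 0, against 9.27% (1614). The median log2 fold change was 0.25 over the 8 receptors and −0.0028 over all tested genes, and 7 of the 8 values were positive. Without WT replicate 4 the median was 0.28, and again 1 receptor was called higher and 0 lower, where 1.77% (304) and 1.54% (265) of the 17202 genes tested in that fit were.

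*S1pr1*, the receptor through which cells follow S1P toward blood and lymph, had normalized counts of 2725, 2115, and 2344 in WT HSCs (replicates 2, 3, and 4) and of 3677, 3525, and 4217 in *Irf1-/-* HSCs. The lowest knockout library was above the highest WT library. The mean rose from 2395 ± 308 (SD, *n* = 3 mice) to 3806 ± 364, a ratio of 1.59. This gave a log2 fold change of 0.67 (SE 0.11, 95% CI 0.43 to 0.91, adjusted *P* = 0.00476, limma), higher in 3 of 3 knockout libraries. The call was made with any single library left out, between 0.59 (WT replicate 3 left out) and 0.77 (WT replicate 2 left out), and in the fit lacking WT replicate 4 the value was 0.66 (adjusted *P* = 0.00991, limma). It was lost when limma was fitted without an intensity trend in the prior variance (adjusted *P* = 0.194, against 3.142e-06 to 0.194 over 16 alternatives). *S1pr1* is also a transcript of endothelial cells, whose 10 markers summed to between 27717 and 30295 normalized counts in the knockout libraries and to between 23717 and 23899 in the WT libraries. Most of this sum was *Tie1* (mean 17597), whereas *Cdh5* was between 4.11 and 29.0, and the markers did not all change in the same direction. The part of endothelial transcripts in the result was not tested.

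*Robo4* had 4528, 3465, and 4698 normalized counts in WT and 5576, 5336, and 5759 in *Irf1-/-* HSCs. The groups did not overlap, and WT replicate 3 was the lowest library. The means were 4231 ± 668 and 5557 ± 212 (SD, *n* = 3), with a log2 fold change of 0.41 (SE 0.11, 95% CI 0.17 to 0.65) that missed the threshold (adjusted *P* = 0.0697, limma). The size of this difference moved with single WT libraries, being 0.27 when WT replicate 3 was left out and 0.49 when WT replicate 4 was, and in the latter fit the adjusted *P* was 0.0261 (limma; 0.0155 to 0.360 over 16 alternatives).

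*Cxcr4* was detected at 484, 436, and 421 normalized counts in WT and at 574, 417, and 452 in *Irf1-/-* HSCs. The groups overlapped, with the highest and the lowest library both from knockout mice. The means were 447 ± 33.0 and 481 ± 82.4 (SD, *n* = 3). The log2 fold change of 0.094 was smaller than its SE (0.17, 95% CI −0.28 to 0.47, adjusted *P* = 0.867, limma), and it was −0.041 without *Irf1-/-* replicate 2. Leaving out WT replicate 4 gave 0.051.

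Among the adhesion molecules, *Jam3*, which encodes the junctional protein JAM-C, had 1537, 1447, and 1494 normalized counts in WT and 1838, 2112, and 2203 in *Irf1-/-* HSCs. WT mice lay close together, and every knockout library was above them. The means were 1493 ± 45.1 and 2051 ± 190.01 (SD, *n* = 3), a ratio of 1.37. The log2 fold change of 0.45 passed the adjusted *P* but not the fold change threshold (SE 0.11, 95% CI 0.22 to 0.69, adjusted *P* = 0.0355, limma, higher in 3 of 3 knockout libraries). Its adjusted *P* in limma was 0.0412 (log2 fold change 0.46) without WT replicate 4, but it exceeded 0.05 when either *Irf1-/-* replicate 3, *Irf1-/-* replicate 4, WT replicate 2, or WT replicate 3 was left out, up to 0.190 (without *Irf1-/-* replicate 4, log2 fold change 0.40).

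*Pecam1*, which encodes an adhesion protein of endothelial and blood cells, was at 3337, 3193, and 3870 normalized counts in WT and at 4344, 3745, and 4909 in *Irf1-/-* HSCs. *Irf1-/-* replicate 3 was below WT replicate 4, so the groups overlapped. On the log2 scale the difference was 0.32 (SE 0.11, 95% CI 0.075 to 0.56, adjusted *P* = 0.161, limma), and with single libraries left out it lay between 0.22 (without *Irf1-/-* replicate 4) and 0.42 (without *Irf1-/-* replicate 3). In the fit lacking WT replicate 4 it was 0.40 (adjusted *P* = 0.0609, limma, with 0.0403 to 0.557 over 16 alternatives). *Selplg* had 13023, 12966, and 12532 normalized counts in WT and 13604, 15957, and 14137 in *Irf1-/-* HSCs. The groups did not overlap, although *Irf1-/-* replicate 2 was only just above the WT libraries. The difference was small and did not pass (log2 fold change 0.18, SE 0.087, 95% CI −0.0081 to 0.37, adjusted *P* = 0.331, limma). It lay between 0.11 (without *Irf1-/-* replicate 3) and 0.23 (without *Irf1-/-* replicate 2) with single libraries left out, and was 0.16 without WT replicate 4.

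*Cd44* was at 5851, 5415, and 4997 normalized counts in WT and at 4997, 5416, and 5223 in *Irf1-/-* HSCs. The groups overlapped, with WT replicate 2 the highest library, and the log2 fold change was −0.055 (SE 0.090, 95% CI −0.25 to 0.14, adjusted *P* = 0.844, limma). It was the single negative value among the 8 and was 0.0019 without WT replicate 2. Leaving out WT replicate 4 gave −0.11. *Alcam* was at 585, 366, and 440 normalized counts in WT and at 485, 493, and 547 in *Irf1-/-* HSCs. WT replicate 2 was the highest and WT replicate 3 the lowest of all libraries, so the knockout values lay inside the WT range. *Alcam* had a log2 fold change of 0.16 (SE 0.19, 95% CI −0.24 to 0.56, adjusted *P* = 0.765, limma), and this was 0.00028 when WT replicate 3 was left out and 0.34 when WT replicate 2 was, and 0.13 without WT replicate 4.

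Tested singly, each receptor had 3 mice against 3, for which the exact two-sided permutation test cannot go below *P* = 0.1. *S1pr1*, *Jam3*, *Robo4*, and *Selplg* reached this smallest value. *Pecam1* gave an exact permutation *P* of 0.2, *Cd44* and *Alcam* 0.5, and *Cxcr4* 0.7.

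To compare levels between genes, normalized counts were divided by the length in kilobases of the longest coding transcript of GENCODE vM1. *Selplg* was the most abundant receptor in WT HSCs, at 4931 ± 103 (SD, *n* = 3) normalized counts per kilobase. *Robo4* (1091 ± 172), *Pecam1* (1007 ± 104), and *Cd44* (966 ± 76.1) followed, and the WT libraries of these 3 overlapped. *S1pr1* (791 ± 102) and *Jam3* (774 ± 23.4) came next and overlapped with each other, and *S1pr1* also reached the ranges of *Cd44* and *Robo4*. *Cxcr4* was lower at 248 ± 18.3, and *Alcam* was the lowest at 76.8 ± 18.4, with no overlap between them or with the others. In *Irf1-/-* HSCs the order on this scale was *Selplg* (5594), *Robo4* (1433), *Pecam1* (1259), *S1pr1* (1257), *Jam3* (1063), *Cd44* (928), *Cxcr4* (266), and *Alcam* (84.2). *S1pr1* lay between 698 and 900 per kilobase in WT libraries, where *Cd44* lay between 890 and 1042, and between 1164 and 1392 in knockout libraries, where *Cd44* lay between 890 and 965.

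The related receptors were at very different levels. Of the S1P receptors, WT HSCs had 1785 normalized counts per kilobase of *S1pr4* and 840 of *S1pr2*, but 50.8 of *S1pr3*. In the junctional family, *Esam* (7358) and *F11r* (2678), which encodes JAM-A, exceeded *Jam3*, and *Jam2*, which encodes JAM-B, was at 264. *Robo4* was the most abundant roundabout receptor, since *Robo3* was at 196, *Robo1* at 17.5, and *Robo2* at 8.19 per kilobase.

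The receptors were then set beside 108 other genes of their pathways, of which 103 were tested and 5 (*S1pr5*, *Has1*, *Has2*, *Has3*, and *Lyve1*) were below the minimum. In limma 2 of the 103 were called higher and 3 lower, where 0.96% and 0.954% of all tested genes were, and 96 did not pass the adjusted *P* with or without the fold change threshold. At an unadjusted *P* under 0.05, 12 were higher and 11 lower, against 8.38% and 8.07% of all genes, and these shares apply to each list that follows. The lists' edgeR and DESeq2 counts stand against 165 higher and 162 lower of 17404 genes (edgeR) and 295 and 209 of 26264 (DESeq2). The median log2 fold change of the 103 was 0.0039 (−0.015 without WT replicate 4). None of the 5 called genes was called when limma was fitted without an intensity trend, with an adjusted *P* between 0.0868 (*Cd74*) and 0.368 (*Mfsd2b*). Without WT replicate 4, 2 were called higher and 6 lower, where 304 and 265 of all genes were, with *C1galt1*, *Hmmr*, and *Tpst1* added to the lower genes.

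In the CXCL12 axis, 1 of 18 genes was called higher and 0 lower (median 0.029, or 0.035 without WT replicate 4), with 2 higher and 0 lower at an unadjusted *P* under 0.05 in limma and 0 lower by edgeR or DESeq2. The called gene was *Dpp4*, a surface peptidase that cleaves and inactivates CXCL12. Its normalized counts were 3574, 2982, and 2702 in WT and 5766, 5213, and 5217.5 in *Irf1-/-* HSCs. Every knockout library was well above every WT library. *Dpp4* rose by 0.81 on the log2 scale (limma, SE 0.11, adjusted *P* = 0.000867) and was called with any single library left out (0.72 without WT replicate 4). The abundant signaling genes of the axis did not pass, with log2 fold changes of 0.059 for the G protein subunit *Gnai2*, 0.18 for the receptor kinase *Grk2*, −0.087 for *Gnai3*, and −0.090 for the regulator *Rgs18*. The ligand *Cxcl12* was low, at 51.0, 27.0, and 116 normalized counts in WT and 102, 85.5, and 68.5 in *Irf1-/-* HSCs.

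None of the 10 SLIT and ROBO genes was called by limma, edgeR, or DESeq2, and 0 had an unadjusted *P* under 0.05 in limma (median 0.14, or 0.27 without WT replicate 4). The 4 most abundant were *Srgap2* (log2 fold change −0.12), *Srgap3* (0.0073), *Robo3* (−0.25), and *Robo1* (0.43).

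In the S1P axis, 0 of 12 tested genes were called higher and 1 lower (median 0.012, or 0.054 without WT replicate 4), with 2 higher and 3 lower at an unadjusted *P* under 0.05 in limma and 0 higher by edgeR or DESeq2. The gene called lower in limma was *Mfsd2b*, an exporter of S1P known from red cells and platelets, with 10365, 14177, and 9245 normalized counts in WT and 8262, 4142, and 6705 in *Irf1-/-* HSCs. WT replicate 3 was the highest and *Irf1-/-* replicate 3 the lowest, and the groups did not overlap. *Mfsd2b* fell by 0.86 on the log2 scale (SE 0.20, adjusted *P* = 0.0355, limma). Its call rested on single mice. In limma the adjusted *P* was 0.0769 (log2 fold change −0.57) when *Irf1-/-* replicate 3 was left out, 0.0632 (−0.92) for *Irf1-/-* replicate 4, and 0.141 (−0.68) for WT replicate 3. Without WT replicate 4 *Mfsd2b* was called at −0.99. DESeq2 (adjusted *P* = 0.1000) and limma after quantile normalization (0.0640) did not call it either (0.0205 to 0.368 over 16 alternatives). *Sphk1*, a kinase that makes S1P, was at 146, 57.5, and 304 normalized counts in WT and at 45.8, 76.9, and 23.9 in *Irf1-/-* HSCs. The groups overlapped, and WT replicate 4, the library with granulocyte transcripts, was the highest. *Sphk1* was called lower by DESeq2 (−1.79, adjusted *P* = 0.00816) but not by limma (−1.62, adjusted *P* = 0.146). The DESeq2 call was lost when WT replicate 4 was left out (−1.05, adjusted *P* = 0.222) or *Irf1-/-* replicate 4 was (−1.46, adjusted *P* = 0.104), whereas limma called it without WT replicate 3 (−2.24, adjusted *P* = 0.0437) and gave −1.04 without WT replicate 4. The far more abundant exporter *Spns2* had a log2 fold change of −0.0044, the phosphatase *Sgpp1* −0.23, and the S1P lyase *Sgpl1* 0.42, and none of these 3 passed the test.

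Markers of red cells and platelets were lower together with *Mfsd2b*. The 6 megakaryocyte and platelet markers summed to 53715, 69071, and 51065 normalized counts in WT and to 46916, 31647, and 43455 in *Irf1-/-* HSCs, led by *Itga2b*. Of these 6, *Pf4* (log2 fold change −1.11) and *Gp1bb* (−0.90) were called lower in limma. The 7 erythroid markers summed to 3705, 3828, and 2995 in WT and to 2924, 2217, and 2731 in *Irf1-/-* HSCs, led by *Epor*, with *Klf1* called lower (−0.72). The globin genes *Hba-a1*, *Hba-a2*, *Hbb-bs*, and *Hbb-bt* were at 0 in every library, but their copies are near identical and these zeros are uncertain. The Ter119 antibody of the sort would remove maturing red cells, whereas no lineage antibody was directed at platelets. The part of these transcripts in the result was not tested, and in bulk samples fewer cells of a kind and less RNA per cell cannot be told apart.

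Of the 9 tested genes linked to CD44 and hyaluronan, 0 were called higher and 1 lower (median −0.17, or −0.26 without WT replicate 4), with 1 higher and 2 lower at an unadjusted *P* under 0.05 in limma and 0 higher by edgeR or DESeq2. The lower gene was *Cd74*, the invariant chain of MHC class II, which also pairs with CD44 as a receptor at the cell surface. It had 6182, 7584, and 5526 normalized counts in WT and 403, 138, and 54.0 in *Irf1-/-* HSCs. This was by far the widest separation among the pathway genes (log2 fold change −5.45, SE 0.47, adjusted *P* = 1.12e-05, limma, lower in 3 of 3 knockout libraries), and the value was −5.55 without WT replicate 4. The linkers of CD44 to the cytoskeleton were not called, with log2 fold changes of 0.0039 for *Msn*, −0.19 for *Rdx*, and −0.089 for *Ezr*.

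Among the 18 genes for selectins and the synthesis of their ligands, 1 was called higher and 0 lower (median −0.0032, or −0.046 without WT replicate 4), with 2 higher and 3 lower at an unadjusted *P* under 0.05 in limma and 0 lower by edgeR or DESeq2. The called gene was *Selp*, which encodes P-selectin, the main partner of PSGL-1. *Selp* was at 3266, 3011, and 3621 normalized counts in WT and at 5350, 5138, and 7382 in *Irf1-/-* HSCs. The groups were widely apart, with *Irf1-/-* replicate 4 the highest. *Selp* rose by 0.84 on the log2 scale (SE 0.13, adjusted *P* = 0.00251, limma) and was called with any single library left out (0.67 without *Irf1-/-* replicate 4, 0.91 without WT replicate 4). P-selectin is also a protein of platelets and endothelial cells. The summed platelet markers were lower, and the summed endothelial markers higher, in each knockout library than in any WT library. Most of the endothelial sum was *Tie1*, and the endothelial markers did not all change in the same direction. The part of platelet and endothelial transcripts in the result was not tested. *Tpst1*, an enzyme that sulfates tyrosines of PSGL-1, was at 1916, 1854, and 1585 in WT and at 1123, 1413, and 1109 in *Irf1-/-* HSCs. Its log2 fold change of −0.56 passed the adjusted *P* but not the fold change threshold (SE 0.13, adjusted *P* = 0.0306, limma). With single libraries left out it passed the adjusted *P* in 2 of 6 fits, and in both, without *Irf1-/-* replicate 3 (−0.67) and without WT replicate 4 (−0.64), it was also called. The related and more abundant *Tpst2* had a log2 fold change of 0.025, and *Cd34* (0.16), *Glg1* (−0.031), and *Spn* (−0.045) did not pass either.

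Of the 8 genes of the junctional adhesion family, 0 were called with the fold change threshold by limma, edgeR, or DESeq2, and 2 were higher at an unadjusted *P* under 0.05 in limma (median 0.12, or 0.089 without WT replicate 4). *Jam2*, whose product JAM-B binds JAM-C, passed the adjusted *P* alone. It was at 1198, 1173, and 1087 normalized counts in WT and at 1376, 1997, and 1735 in *Irf1-/-* HSCs, with no overlap. The log2 fold change was 0.55 (SE 0.14, adjusted *P* = 0.0441, limma), and it passed in 1 of 6 fits with a library left out, that without *Irf1-/-* replicate 2 (0.69, adjusted *P* = 0.0208, limma). Without WT replicate 4 it was 0.51 (adjusted *P* = 0.0659, limma, with 0.00244 to 0.304 over 16 alternatives). *Esam* (0.19) and *F11r* (−0.044) did not pass.

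*Pecam1*, *Esam*, *Robo4*, *Jam3*, *S1pr1*, and *Selp* are also transcripts of endothelial cells. The 10 endothelial markers summed to 23823, 23717, and 23899 normalized counts in WT and to 27717, 30295, and 29825 in *Irf1-/-* HSCs, and *Tie1* made up most of this (mean 17597). Of the 10, *Emcn* (log2 fold change 0.58) and *Egfl7* (0.38) passed the adjusted *P* as higher in limma. *Tie1* was higher in every knockout library but did not pass (log2 fold change 0.24, adjusted *P* = 0.157, limma). The remaining markers were at lower levels and differed in direction. *Kdr* was between 519 and 1241 normalized counts (log2 fold change 0.59, adjusted *P* = 0.132, limma), and *Flt4* between 39.4 and 123 (−0.85, adjusted *P* = 0.271, limma), lower in every knockout library. *Sox17* was between 0 and 2.08 normalized counts, *Cdh5* between 4.11 and 29.0, *Plvap* between 58.1 and 127, *Stab2* between 74.3 and 183, and *Cldn5* between 94.7 and 186. The part of endothelial transcripts in the results was not tested.

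The 7 partners of PECAM-1 and ALCAM were not called by limma, edgeR, or DESeq2, and 1 was higher at an unadjusted *P* under 0.05 in limma (median −0.17, or 0.030 without WT replicate 4). The phosphatases *Ptpn6* (log2 fold change 0.068) and *Ptpn11* (−0.17), which PECAM-1 recruits, and *Cd38* (0.40, adjusted *P* = 0.253, limma) did not pass. *Cd177*, a neutrophil partner of PECAM-1, was between 28.0 and 466.9 and highest in WT replicate 4, the library with granulocyte transcripts.

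Of 21 genes of migration signaling, 0 were called higher and 1 lower (median 0.0068, or −0.029 without WT replicate 4), with 2 higher and 3 lower at an unadjusted *P* under 0.05 in limma and 0 higher by edgeR or DESeq2. *Rap1b*, a small GTPase that activates integrins, was at 34442, 42995, and 31934 normalized counts in WT and at 26006, 20721, and 23013 in *Irf1-/-* HSCs. The groups did not overlap, and *Rap1b* fell by 0.64 on the log2 scale (SE 0.12, adjusted *P* = 0.00894, limma). The fall was under the fold change threshold after quantile normalization (−0.54) and without *Irf1-/-* replicate 3 (−0.56) or WT replicate 3 (−0.52), and *Rap1b* was called at −0.73 without WT replicate 4. *Rap1b* is abundant in platelets, whose summed markers were lower in the knockout libraries as given for *Mfsd2b*, and their part in the result was not tested. Its close relative *Rap1a* was at −0.17, and *Fermt3* (−0.15), *Tln1* (0.0068), and *Cdc42* (−0.15) did not pass.

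**Figure D1:**
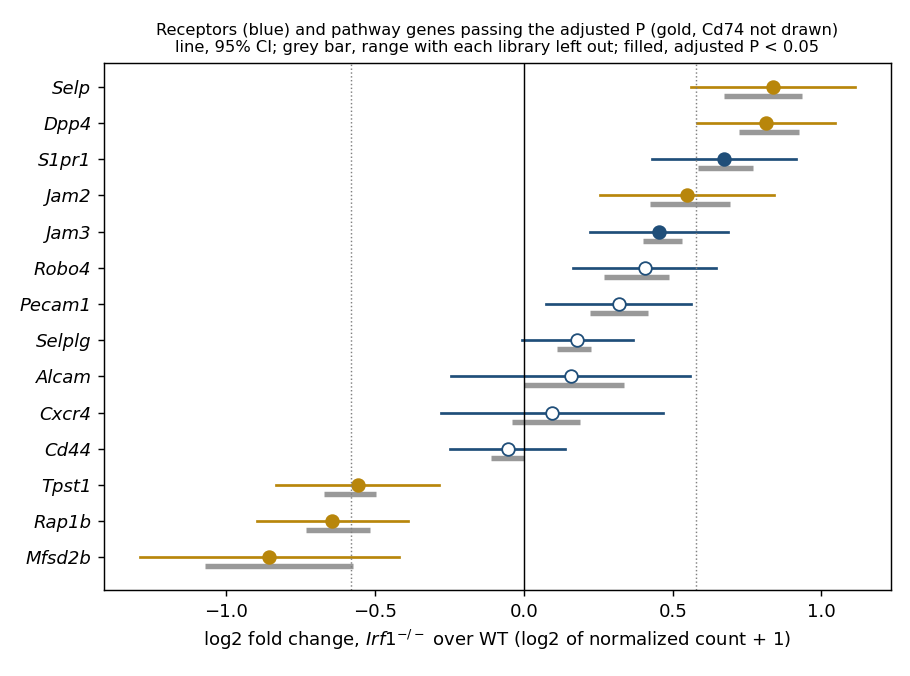
Log2 fold changes (x axis, *Irf1-/-* over WT) of the 8 receptors in blue and of 6 pathway genes that passed the adjusted *P* in gold, without *Cd74* (−5.45), which would compress the scale. Points show the estimate, lines the 95% CI, gray bars the range with each library left out, and dotted lines the threshold of 0.58, which *S1pr1* exceeds at 0.67.

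Markers of other cells were examined in the same libraries. The 6 B cell markers summed to between 2667 and 3103 normalized counts, nearly all from *Cd79b*, and the 7 T and NK cell markers to between 659 and 1231, led by *Klrb1c*. The 6 stromal markers summed to 2096, 2740, and 2543 in WT and to 3636, 2910, and 3706 in *Irf1-/-* HSCs, so that every knockout library was above every WT library. Most of this came from *Pdgfrb* (log2 fold change 0.51, adjusted *P* = 0.0638, limma), whose groups did not overlap, and *Col1a2* (0.51, adjusted *P* = 0.296, limma). *Col1a2* and the 4 markers at lower levels, *Cxcl12* (0.62), *Col1a1* (0.49), *Prrx1* (−0.19), and *Lepr* (−0.62), overlapped between the genotypes. The part of stromal transcripts in the results was not tested. None of these 3 lists had a gene that passed the adjusted *P* in limma. Of the HSC markers, *Fgd5* (log2 fold change 0.83) was called higher, *Procr* (0.52) passed the adjusted *P* as higher, and *Ly6a* (−0.43) passed it as lower. *Ly6a* encodes Sca-1, a marker of the sort gate. *Slamf1*, which encodes the gate marker CD150, was higher in every knockout library but did not pass (0.24, adjusted *P* = 0.217, limma). *Kit* was at −0.0092. Whether the gate took in different cells in the 2 genotypes was not tested. *Flt3*, which marks progenitors beyond the HSC stage, was called higher (0.67, adjusted *P* = 0.0407, limma).

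The genes with the pattern most like that of *S1pr1*, the receptor with the largest rise, were sought among 12068 genes whose normalized count averaged 100 or more. Likeness was the root mean square difference between log2 deviations from the mean over 6 libraries. The nearest were *St8sia4* (0.066), *Nat8l* (0.066), and *Smad7* (0.071). For *Cd44*, the receptor with the lowest log2 fold change, they were *Fkbp15* (0.013), *Top3b* (0.019), and *Ccdc130* (0.024).

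Promoters were searched for letters that IRF proteins are known to bind, since IRF1 is the factor missing in the knockout. RefSeq promoter sequences (GRCm38.p6, 250 bases before to 50 after the start) were found for 4 of the 8 receptors, *Cxcr4*, *Robo4*, *Cd44*, and *Alcam*, and for 5 of the 7 pathway genes that passed the adjusted *P*. AANNGAAA, on either strand, was present in 23.9% of 32851 promoters, and GAAANNGAAA, every match of which contains the shorter motif, in 3.44%. Of the receptors, *Robo4* held the first motif, and *Cxcr4*, *Cd44*, and *Alcam* held neither. Of the pathway genes, *Dpp4* held both and *Selp* the first. The matches are shown with the bases around them, with the matching letters in capitals, read on the strand of the gene.
*Robo4*, AANNGAAA on the other strand, chr9:37401769-37401798 (+): cagtgtgaggaTTTCATTTaagaaacccta
*Dpp4*, GAAANNGAAA on the other strand, chr2:62412264-62412293 (−): acaatcacctTTTCTCTTTCtttgccagcc
*Selp*, AANNGAAA on the gene strand, chr1:164115047-164115076 (+): ctgtcataatcAAAGGAAAcctgacccctg
A match describes these letters only, and binding was not analysed here. None of the 8 receptors or of the 7 pathway genes lay within 100 tested genes of *Irf1* on its chromosome (GRCm38.p6 gene order).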

How the data were processed

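RNA was measured in HSCs of 3 WT and 3 *Irf1-/-* mice, grouped by the genotype in their labels. The authors used Trim Galore for trimming, HISAT2 for alignment, htseq-count for counting, and DESeq2 for normalization, all on Galaxy, and the deposited values are a signal, that is, counts divided by 1 size factor per library. The submitters' processing notes name mm39, and the annotation and strand setting are not given in the sources used here, so reads of overlapping genes cannot be told apart. Whole reads were recovered for 100% of values in each library (tolerance 0.01 read).

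The main comparison used limma 3.58.1 under R 4.3.3 (intensity trend, Benjamini-Hochberg over 17404 genes, pseudocount 1, minimum mean 10). edgeR 4.0.16 and DESeq2 1.42.0 on recovered reads, which called 165 and 295 genes higher and 162 and 209 lower, were alternatives, since the deposited values are not raw counts. Other alternatives covered pseudocounts, filters, trend, scaling, a replicate block, and each library left out. Scripts were tested on simulated data. In a check for libraries deposited more than once, those of a genotype had a chi-square per gene of 16.0 to 30.0, which covers counting error only, since PCR copies count as separate reads. Named genes are *Irf1*, the receptors, pathway genes that passed the adjusted *P*, up to 4 abundant genes per list, and the genes most like *S1pr1* and *Cd44*. One gene that this rule covers is left out of the text. Other genes named were list members singled out after their values were seen. Members and lists were chosen with earlier results of these data known. Figures were drawn with matplotlib 3.10.9 in Python 3.11.15.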

Additional observations from a re-analysis of the deposited data

How the results depend on the processing

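Over 16 alternatives the 8 receptors gave 128 log2 fold changes, of which 125 kept their direction and their call by adjusted *P* and fold change together. The exceptions were *Cxcr4*, between −0.041 (without *Irf1-/-* replicate 2) and 0.19 with single libraries left out, *Cd44*, between −0.11 and 0.0019 (without WT replicate 2), and *S1pr1* without an intensity trend (0.67, adjusted *P* = 0.194 in limma, against 3.142e-06 to 0.194 over its alternatives). The cause was not tested. By adjusted *P* alone, *Jam3* passed in 11 of 16 alternatives, *Robo4* in 3, and *Pecam1* in 1. Without the trend, 0 receptors were called higher and 0 passed the adjusted *P* as higher, and 7 genes were called higher and 33 lower in all. Receptors that passed the adjusted *P* as higher ranged from 1 to 3 with single libraries left out, where between 0.565% (98 genes, without *Irf1-/-* replicate 4, 1 receptor) and 2.58% (444, without WT replicate 4, 3 receptors) of all genes did. Of the pathway genes, 0 were called higher and 0 lower without the trend, and 1 was called lower after quantile normalization. Pathway genes called lower were 6 without WT replicate 4 and ranged from 2 to 6 with single libraries left out. Leaving out single libraries gave between 83 (*Irf1-/-* replicate 4) and 304 (WT replicate 4) genes called higher in all, and between 105 (WT replicate 3) and 265 (WT replicate 4) called lower. DESeq2 called 295 higher and 209 lower. For *Irf1* and the 7 pathway genes that passed, 111 of 128 values kept their direction and their call. Of the rest, 13 lost and 4 gained a call, and 0 of the 128 changed direction. For these genes and the pathway counts, the alternatives on pseudocount, filter, trend, and scaling were chosen after seeing the data, as were the fits of *Sphk1* with single libraries left out.

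Whether the shared replicate numbers pair the mice could not be decided. Deviations of libraries with the same number correlated at −0.094 (2), 0.25 (3), and 0.15 (4). Those of libraries with unlike numbers correlated at between −0.33 and 0.25. Each deviation was taken from the mean of only 3 libraries, so these correlations are not independent and cannot exclude a pairing. With the replicate block, 4 receptors passed the adjusted *P* as higher, with *Robo4* and *Pecam1* added, where 2.68% of all genes (467) did, against 2 receptors and 1.73% (301) without the block. In either direction 1075 genes passed with the block and 561 without it, and with the fold change threshold 219 were called higher and 196 lower. With 3 mice a group, small differences such as those of *Selplg* and *Alcam* cannot be resolved, and *Alcam* and *Cxcr4* have the fewest reads.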
